A study of Mus musculus with 20 samples.

Results

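The genes described here are 32 genes of glycolysis, glucose and lactate transport, pyruvate entry into mitochondria and the hypoxia response, measured in macrophages of the mouse dura mater with and without bacterial lipopolysaccharide (LPS). They are a list of gene symbols grouped by function. Its rule uses no measured value, but the list was drawn up with earlier results of these data known. All 32 symbols were among the 33243 of the count table, and all 32 were among the 16632 genes with a total of at least 10 counts that were tested. No member was absent, and each had more than 3 counts, the floor used here, in at least 1 of the 20 libraries.

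RNA was sequenced from CNS-associated macrophages of the cranial dura (dCAMs), sorted as CD45int CD11b+ CD206int-high cells from mice of the genotype Ccr2creERT2/+ R26tdT/tdT. In these mice tamoxifen switches on the red protein tdTomato (tdT) for good in cells whose Ccr2 promoter is active at that time, so tdT+ dCAMs descend from cells that expressed Ccr2 and tdT- dCAMs were unlabelled. All mice of all groups had received the CSF1R inhibitor BLZ945 at 200 mg/kg for 7 days, which depletes macrophages, and tamoxifen at 2 mg per day on the last of these days and 2 and 4 days later. After 8 weeks 5 mice received LPS at 2.5 mg/kg and 5 received PBS (CTL), and 12 h later tdT+ and tdT- dCAMs were sorted from each, giving 4 groups of 5 libraries. CTL mice carry the numbers 174, 175, 177, 178 and 179 and LPS mice 54, 56, 59, 60 and 61, and values of single libraries below are always given in this order. Sample labels state no age, hold no mice without BLZ945, and begin with F in 3 CTL and 2 LPS mice and with M in the others. A tdT- library can also hold cells of the Ccr2 lineage that escaped recombination, since the label depends on the tamoxifen window.

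Glycolysis splits glucose into pyruvate in the cytosol. Glucose enters through transporters of the Slc2a family, is trapped by hexokinases, is committed to breakdown at the phosphofructokinase step and yields ATP at the phosphoglycerate kinase and pyruvate kinase steps. Pyruvate is then turned into lactate by lactate dehydrogenase and exported through Slc16a carriers, or enters mitochondria through pyruvate dehydrogenase, which the Pdk kinases switch off. The transcription factor HIF-1, whose regulated subunit is Hif1a, binds a short core sequence near many of these genes, and macrophages stimulated with LPS are a textbook case of cells that raise glycolysis with oxygen still present.

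To show where that core occurs, the 250 bases before an annotated start were read from RefSeq on GRCm38.p6 for 31 of the 32 members (44 windows, Slc2a3 is missing from them). The core was searched as ACGTG or GCGTG on both strands. It was in 36 of the 44 windows (81.8%), against 12679 of the 32851 windows of all genes (38.6%). By gene, 28 of 31 members had it in at least 1 window, against 11226 of 27025 genes (41.5%). Of the members that rose under LPS in either population 14 of 15 had it, and of the others 14 of 16, shares that lie close together. A match to the kappaB consensus was in 0 of the 44 windows and in 3.90% of all windows. Some windows of Eno1, Aldoa and Pfkm overlap, so the same core counts in more than 1 window. Both forms of the core contain CG, and the windows of all genes were not matched to the members in base composition. The part of base composition in these shares was not tested. The windows below are those of members that rose, hold at least 2 cores and contain no base of an annotated exon. They are printed 5′ to 3′ on the strand of the gene and end at the base before its start, with the cores in capitals. Where the capitals read CACGTG, the core lies on both strands and is also an E-box, the site of other helix-loop-helix factors.
Hk2, chr6:82774455-82774704, - strand: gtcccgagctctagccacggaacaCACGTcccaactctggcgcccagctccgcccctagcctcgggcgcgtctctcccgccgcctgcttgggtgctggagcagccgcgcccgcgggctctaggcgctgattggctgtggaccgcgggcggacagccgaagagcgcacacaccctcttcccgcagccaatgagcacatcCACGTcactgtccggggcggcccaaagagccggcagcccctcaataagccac
Gapdh, chr6:125165774-125166023, - strand: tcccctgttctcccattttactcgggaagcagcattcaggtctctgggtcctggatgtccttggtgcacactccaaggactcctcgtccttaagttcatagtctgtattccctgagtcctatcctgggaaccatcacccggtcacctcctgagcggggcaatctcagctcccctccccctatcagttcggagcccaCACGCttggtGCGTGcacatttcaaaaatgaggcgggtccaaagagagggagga
Pgk1, chrX:106186850-106187099, + strand: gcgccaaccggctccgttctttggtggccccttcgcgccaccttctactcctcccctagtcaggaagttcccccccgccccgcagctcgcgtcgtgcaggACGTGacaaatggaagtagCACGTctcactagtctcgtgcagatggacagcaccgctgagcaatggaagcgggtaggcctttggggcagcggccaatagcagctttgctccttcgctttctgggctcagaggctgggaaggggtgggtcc
Pgam1, chr19:41911621-41911870, + strand: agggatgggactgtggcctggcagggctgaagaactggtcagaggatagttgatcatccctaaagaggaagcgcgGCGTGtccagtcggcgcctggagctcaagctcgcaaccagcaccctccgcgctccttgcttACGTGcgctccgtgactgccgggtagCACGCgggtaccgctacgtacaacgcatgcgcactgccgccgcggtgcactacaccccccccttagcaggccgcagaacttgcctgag
Ldha, chr7:46845554-46845803, + strand: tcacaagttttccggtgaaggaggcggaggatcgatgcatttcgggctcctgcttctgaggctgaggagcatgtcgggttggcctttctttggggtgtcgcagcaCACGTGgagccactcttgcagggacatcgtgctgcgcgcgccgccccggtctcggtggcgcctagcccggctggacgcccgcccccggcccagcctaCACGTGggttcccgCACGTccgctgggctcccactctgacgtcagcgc
Slc16a1, chr3:104638414-104638663, + strand: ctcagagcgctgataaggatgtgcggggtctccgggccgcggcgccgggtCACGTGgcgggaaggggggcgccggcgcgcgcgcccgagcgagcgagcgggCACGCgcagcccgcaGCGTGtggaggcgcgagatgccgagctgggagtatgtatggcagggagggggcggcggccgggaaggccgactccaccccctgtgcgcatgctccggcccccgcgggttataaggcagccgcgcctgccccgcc
Hif1a, chr12:73907617-73907866, + strand: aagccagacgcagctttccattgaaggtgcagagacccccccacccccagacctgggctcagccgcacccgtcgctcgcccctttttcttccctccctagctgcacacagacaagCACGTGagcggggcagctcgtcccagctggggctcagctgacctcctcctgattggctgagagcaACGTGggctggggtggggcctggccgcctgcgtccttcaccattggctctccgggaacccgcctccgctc
With each CACGTG counted as 2, once per strand, Ldha had 5 cores in its window, Slc16a1 4, Hif1a and Pgam1 3 each, and Hk2, Gapdh and Pgk1 2 each. Among these windows Ldha, Slc16a1 and Hif1a hold a CACGTG, so their counts are larger than their numbers of separate sites. A match in such a window is a description of the sequence, and binding of HIF-1 was not measured.

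Depth and quality went with treatment. CTL libraries held 6017650 to 12208203 counts and LPS libraries 12073566 to 18925908, and genes with at least 10 counts numbered 6671 to 9365 among tdT- CTL, 10024 to 11032 among tdT+ CTL and 10930 to 11987 among LPS libraries. At or under the floor were 43 of the 160 member values of tdT- CTL libraries (26.9%), 16 of tdT+ CTL, 5 of tdT- LPS and 3 of tdT+ LPS libraries, so the tdT- CTL libraries were patchy. Among these, mice 174 and 179 had the fewest genes. Mice 179, 177 and 174 had the fewest members over the floor, with 19, 22 and 23. All 10 border macrophage markers were over the floor in every group. In CPM, counts per 1e+06 counts of a library after TMM scaling, they summed to 5726 to 11530.1 in tdT- CTL and 6369 to 7243 in tdT- LPS, and to 13330.3 to 15347 in tdT+ CTL and 7681 to 9964 in tdT+ LPS libraries, the last pair without overlap. By the threshold given below, 4 of the 10 were lower and 2 higher under LPS in tdT- and 3 lower and 2 higher in tdT+ dCAMs. Of all genes 4.27% were lower and 7.20% higher in tdT-, and 2.52% lower and 3.37% higher in tdT+ dCAMs. The 10 neutrophil markers summed to 68.7 to 196 CPM in CTL and to 434 to 1091 CPM in LPS libraries. By the same threshold 3 of them were higher under LPS in tdT- and 2 in tdT+ dCAMs, and 0 were lower in either. S100a8 averaged 8.07 and 2.09 CPM in tdT- and tdT+ CTL and 291 and 309 CPM in LPS libraries. Mmp8 averaged 0.0491 and 0.0802 CPM in CTL and 98 and 103 CPM in LPS libraries. Ly6g and Cxcr2 were at or under the floor in 3 of the 4 groups, and S100a9, Ngp and Ltf averaged lower under LPS in both populations. The 5 fibroblast markers reached 4461 CPM in tdT- CTL libraries and at most 356 CPM in the other groups, and the 5 T and NK cell markers stayed at or under 18.4 CPM. The 6 monocyte markers summed to 548 to 1095 and 300.2 to 759 CPM in tdT- CTL and LPS libraries, and to 160.2 to 467 and 159 to 308 CPM in tdT+ libraries. The 5 dendritic cell markers summed to 16 to 571 and 245 to 638 CPM in tdT- and to 193 to 336 and 11.5 to 36.1 CPM in tdT+ libraries, where LPS libraries lay lower without overlap. The 4 B cell markers summed to 0 to 114 CPM over all libraries, the 4 mast cell markers to 0 to 125, the 4 endothelial markers to 0 to 89.5, and the 3 red cell markers that were listed to 0 to 765 CPM. The part that depth, patchy libraries and these markers' cell types have in the results was not tested beyond the alternatives in the closing section. In sorted bulk samples, more RNA per cell and more cells with a given RNA cannot be told apart.

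LPS raised a large part of the list in both populations and lowered none of it past the threshold. A member counted as changed with an edgeR quasi-likelihood adjusted p under 0.05, adjusted over all 16632 genes, and a log2 fold change of more than 1 in size. By this rule 14 of 32 members were higher in tdT- dCAMs under LPS, where 7.20% of all genes were higher, and 0 were lower, where 4.27% of all genes were lower. In tdT+ dCAMs 12 of 32 were higher, against 3.37% of all genes, and 0 lower, against 2.52%. Without a minimum fold 15 members passed upwards in tdT- dCAMs (7.67% of all genes) and 13 in tdT+ dCAMs (3.79%), the added gene being Gpi1 in each. Of the members that edgeR called in neither direction, DESeq2 called 1 lower in each population, Aldoc in tdT- (7.00% of all genes) and Pfkfb4 in tdT+ dCAMs (4.41%). Members with a p under 0.05 before adjustment numbered 18 of 32 in tdT- and 17 of 32 in tdT+ dCAMs, against 30.2% and 19.6% of all genes.

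Of the 20 members whose log2 CPM averaged 4 or more over all libraries, 12 were higher in tdT- dCAMs, against 5.75% of the 5823 genes at that level, and 12 in tdT+ dCAMs, against 5.19%. That average takes in the LPS libraries, so a gene that rises can pass it through them. Slc16a3 did so with means of 7.87 and 8.2 CPM in tdT- and tdT+ CTL libraries. These counts are therefore no support separate from the LPS contrasts themselves. The median log2 fold change of the 32 members was 1.21 in tdT- and 1.24 in tdT+ dCAMs, where all tested genes had medians of 0.02 and 0.01. The 5 LPS libraries lay above the 5 CTL libraries with no overlap for 16 members in tdT- dCAMs (9.32% of all genes) and for 18 in tdT+ dCAMs (10.6%). They lay below without overlap for 0 members in tdT- dCAMs (3.31% of all genes) and for 2 in tdT+ dCAMs (7.19%), Pfkfb4 and Slc2a3. Summed over the list, CTL libraries held 1641 to 2454 CPM and LPS libraries 6908 to 9306 CPM.

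**Figure D1:**
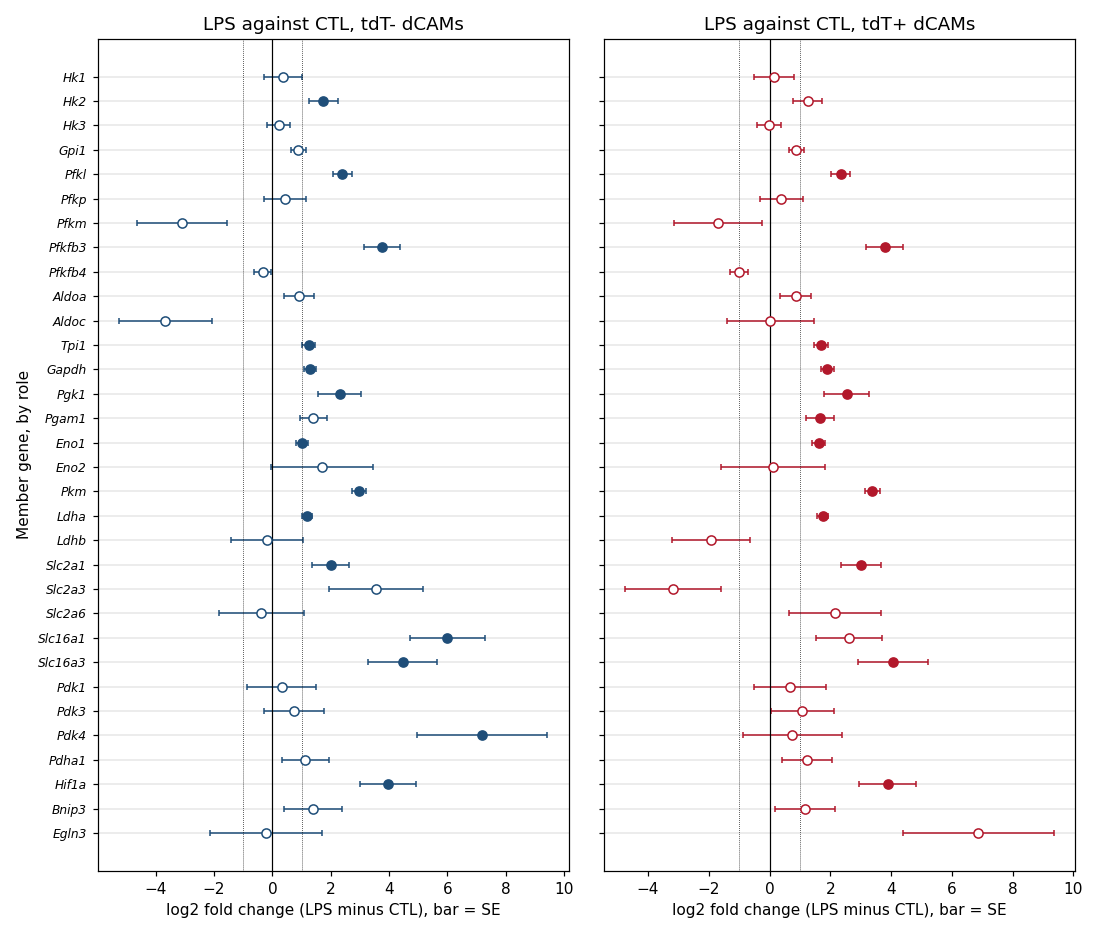
Log2 fold change of each of the 32 member genes, LPS minus CTL, in tdT- dCAMs (left) and tdT+ dCAMs (right), with the SE from the edgeR fit as bars and n = 5 libraries per group. Filled points passed the threshold, dotted lines mark a log2 fold change of 1 in either direction, and all filled points, 14 on the left and 12 on the right, lie to the right of 0.

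Among the glucose carriers Slc2a1, the basal transporter GLUT1, rose. Slc2a1 (chromosome 4, 119108711 to 119137983 on GRCm38, as all coordinates here) was at 54.3, 22.6, 0.737, 46 and 92.1 CPM in tdT- CTL libraries and at 195, 142, 161, 151 and 212 CPM in tdT- LPS libraries. In tdT+ libraries it went from 7.63, 33.3, 24.4, 24.5 and 19 CPM to 216, 134, 178, 144 and 208 CPM. Every LPS library was above every CTL library, and the CTL values were widely spread, with the tdT- library of mouse 177 close to 0. Its log2 fold change was 2.0 ± 0.63 (edgeR adjusted p = 0.0428) in tdT- and 3.01 ± 0.66 (edgeR adjusted p = 0.00555) in tdT+ dCAMs (± SE here and below). The call in tdT- dCAMs was lost when all libraries were thinned to the depth of the shallowest (1.92 (edgeR adjusted p = 0.0584)), and also without any 1 of the 5 LPS mice or without CTL mouse 175 or 178 (edgeR adjusted p from 0.0711 to 0.0992), and it held in 10 of the 20 alternatives.

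The other glucose carriers gave no call under LPS. Slc2a3, the high-affinity transporter GLUT3, was at 0, 0.22, 0.123, 0 and 4.19 CPM in tdT- CTL and at 13.6, 55.1, 13.1, 10.9 and 13.5 CPM in tdT+ CTL libraries. Under LPS it was at 29, 15.7, 0, 3.44 and 5.04 CPM in tdT- and 0, 4.7, 1.53, 5.08 and 0.397 CPM in tdT+ libraries. So all 5 tdT+ CTL libraries lay above all tdT- CTL libraries and above all tdT+ LPS libraries, with log2 fold changes of 4.54 ± 1.68 (edgeR adjusted p = 0.122) between the populations and -3.18 ± 1.57 (edgeR adjusted p = 0.273) for LPS in tdT+ dCAMs, neither of which passed. Slc2a6, a lysosomal member of the family, was at 0 to 228 CPM in tdT- CTL libraries, with the highest value in mouse 174, at 0 to 18 in tdT+ CTL and at 19.5 to 51 and 7.7 to 41.9 CPM in tdT- and tdT+ LPS libraries. In the fit with mouse as a random replicate block (limma-voom), Slc2a6 passed in tdT- dCAMs with 4.64 (limma adjusted p = 0.0224), against -0.38 in edgeR. Slc2a3 passed in it between the populations in CTL mice with 6.11 (limma adjusted p = 0.00692). The median of all genes also moved up in both of these contrasts in that fit.

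Among the hexokinases, which phosphorylate glucose and so hold it in the cell, Hk2 was the member that rose, and it passed in tdT- dCAMs. Hk2 (chromosome 6, 82725025 to 82774454), the inducible form, was at 36.1, 19.4, 9.21, 31.7 and 21.1 CPM in tdT- CTL and 67.8, 67.3, 80.9, 89.8 and 86.6 CPM in tdT- LPS libraries, with no overlap. Among tdT+ libraries it was at 13.8, 40.1, 11, 18.3 and 82.1 CPM in CTL and 74.9, 94.4, 70.8, 74.7 and 79.4 CPM in LPS mice, where the CTL library of mouse 179 lay inside the LPS range. The log2 fold changes were 1.74 ± 0.50 (edgeR adjusted p = 0.0238) in tdT- and 1.25 ± 0.49 (edgeR adjusted p = 0.152) in tdT+ dCAMs, and they differed by -0.49 ± 0.68 (tdT+ minus tdT-, edgeR adjusted p = 0.975), so a difference between the populations was not shown. The call in tdT- dCAMs was lost without LPS mouse 56, 59, 60 or 61 (edgeR adjusted p from 0.0515 to 0.065), and with the replicate block tdT+ dCAMs passed too, with 1.5 (limma adjusted p = 0.0271). The call in tdT- dCAMs was lost as well with quality weights (limma adjusted p = 0.0612) and in a fit of the tdT- libraries alone (edgeR adjusted p = 0.0776). Hk1, the housekeeping form, averaged 74 ± 56.6 and 95.5 ± 14.2 CPM in tdT- CTL and LPS libraries (SD, n = 5), and Hk3, a form of blood cells, 129 ± 72.1 and 149 ± 69.4 CPM. Neither passed in either population, with log2 fold changes of -0.03 to 0.37.

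Gpi1, which turns glucose 6-phosphate into fructose 6-phosphate, shifted by a smaller amount. It rose from 107 to 296 to 298 to 440.5 CPM in tdT- and from 149 to 289 to 326 to 439 CPM in tdT+ libraries, without overlap. Its log2 fold changes of 0.89 ± 0.25 (edgeR adjusted p = 0.0215) and 0.88 ± 0.25 (edgeR adjusted p = 0.0352) passed the adjusted p and missed the minimum fold.

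At the phosphofructokinase step the genes that rose were that of the liver-type enzyme Pfkl and Pfkfb3, whose enzyme makes fructose 2,6-bisphosphate, the strongest activator of that enzyme. Pfkfb3 (chromosome 2, 11471433 to 11554077) was at 45.4, 190.2, 28, 56.9 and 3.14 CPM in tdT- CTL and at 759, 782, 919, 668 and 1244 CPM in tdT- LPS libraries. In tdT+ libraries it was at 77.2, 40.8, 96.4, 76.3 and 68.7 CPM and at 893, 947, 1055, 863 and 1193 CPM under LPS. The lowest LPS library stood at 3.51 times the highest CTL library in tdT- and at 8.95 times in tdT+ dCAMs, and the log2 fold changes were 3.76 ± 0.61 (edgeR adjusted p = 2.28e-04) and 3.78 ± 0.61 (edgeR adjusted p = 2.43e-04). Pfkl (chromosome 10, 77986947 to 78010083) went from 91.2, 44, 41.6, 25.2 and 66.2 to 277, 219, 348, 265 and 305 CPM in tdT- libraries. In tdT+ libraries the corresponding values were 69.5, 32.7, 76.6, 51.9 and 64.9 and 291, 240.4, 259.6, 325 and 383 CPM. Again no libraries overlapped, with log2 fold changes of 2.40 ± 0.31 (edgeR adjusted p = 2.16e-05) and 2.34 ± 0.31 (edgeR adjusted p = 2.86e-05).

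The sister genes of this step gave no call. Pfkp, the platelet type, averaged 46.3 ± 43.3 and 62.4 ± 16.1 CPM in tdT- CTL and LPS libraries, and Pfkm, the muscle type, was at 0, 14.7, 0, 121 and 0 CPM in tdT- CTL and at most 6.41 CPM in LPS libraries, with no call for either. Pfkfb4, a second enzyme that sets fructose 2,6-bisphosphate, was at 124, 140.2, 94.3, 102 and 100.3 CPM in tdT+ CTL and 55.8, 53.7, 45.9, 63.9 and 60.9 CPM in tdT+ LPS libraries, a log2 fold change of -1.0 ± 0.30 (edgeR adjusted p = 0.052) that just missed the threshold, and it passed under 8 of the 20 alternatives. In tdT- dCAMs it was at 40.5 to 81.2 CPM in CTL and 30.7 to 71.3 CPM in LPS libraries (-0.34 ± 0.30 (edgeR adjusted p = 0.482)).

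**Figure D2:**
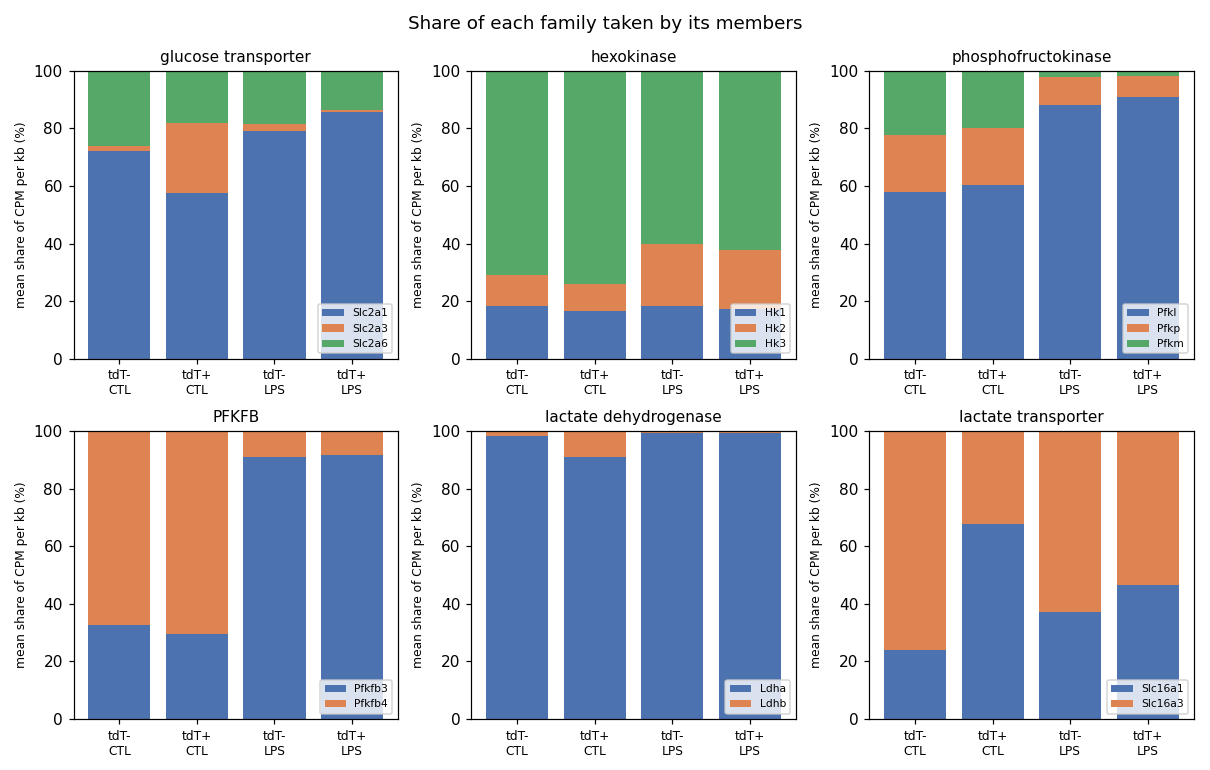
Mean share of each family's summed level (CPM per kb of exon, in percent) taken by each of its members in the 4 groups, with n = 5 libraries per group and n = 4 for the lactate transporters in tdT+ CTL mice, where 1 library had no count of either. Pfkfb3 and Pfkl take nearly all of their families under LPS, with means from 88.1% to 91.8%, and Hk3 stays the largest hexokinase in all groups.

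Set against their sister genes per kilobase of annotated exon, Pfkfb3 and Pfkfb4 changed places. Pfkfb3 made up 32.8% ± 22.2 of the pair in tdT- CTL and 29.5% ± 8.71 in tdT+ CTL libraries (SD, n = 5), and 91.1% ± 3.5 and 91.8% ± 1.51 under LPS. The share of Pfkl among the 3 phosphofructokinases was 58% ± 38.8 and 60.3% ± 10.3 in CTL and 88.1% ± 3.19 and 90.9% ± 1.13 in LPS libraries. The share of Hk2 among hexokinases was 10.9% ± 9.57 and 9.1% ± 7.68 in CTL and 21.7% ± 6.52 and 20.5% ± 5.97 in LPS libraries, behind Hk3 with 60.1% ± 10.1 and 62.1% ± 9.94 under LPS. Slc2a1 held 79% ± 3.23 and 85.8% ± 6.29 of the 3 Slc2a genes under LPS. These shares follow from the levels already given and carry no test of their own.

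The genes of the triose steps rose in both populations. Tpi1 (chromosome 6, 124810586 to 124814296), the isomerase that makes all of the split sugar usable, was at 177, 95.4, 167, 129 and 163 CPM in tdT- CTL and 409, 271, 284, 440.3 and 335 CPM in tdT- LPS libraries. In tdT+ libraries it went from 132, 103, 89.9, 88.1 and 102 to 362, 243, 281, 429.7 and 362 CPM. The groups did not overlap, and the log2 fold changes were 1.25 ± 0.23 (edgeR adjusted p = 7.19e-04) and 1.70 ± 0.23 (edgeR adjusted p = 3.22e-05). The call in tdT- dCAMs was lost with quality weights (limma adjusted p = 0.0752). Gapdh (chromosome 6, 125161715 to 125166467), the dehydrogenase of this step and a widely used reference gene in PCR assays, was at 149, 146, 263, 291 and 228 CPM in tdT- CTL and 612, 477, 452, 595 and 503 CPM in tdT- LPS libraries. In tdT+ libraries the values were 161, 145, 142, 148 and 112 CPM in CTL and 621, 464, 441, 603 and 523 CPM in LPS mice. So Gapdh did not hold steady in these cells: its log2 fold changes were 1.29 ± 0.20 (edgeR adjusted p = 1.74e-04) and 1.91 ± 0.21 (edgeR adjusted p = 1.99e-06), and both calls held in all 20 alternatives.

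The aldolases, which split fructose 1,6-bisphosphate, gave no call. Aldoa was at 3.61 to 17.4 and 15.1 to 26.7 CPM in tdT- CTL and LPS libraries and at 6.36 to 14.3 and 14.9 to 21.6 CPM in tdT+ libraries, where the groups did not overlap, with log2 fold changes of 0.90 ± 0.52 (edgeR adjusted p = 0.244) and 0.86 ± 0.52 (edgeR adjusted p = 0.40). GENCODE M21 lists 2 genes under the symbol Aldoa, and the part of this in its low count was not tested. Aldoc, the brain form, was at 66.8, 14.4, 0.246, 57.9 and 0 CPM in tdT- CTL libraries and at most 4.12 CPM in LPS libraries.

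Lower glycolysis was led by Pkm, the pyruvate kinase of most adult tissues and the last step that yields ATP. Pkm (chromosome 9, 59656368 to 59679375) was at 81.3, 145, 254, 122 and 134 CPM in tdT- CTL and at 1205, 1085, 1034, 1202 and 1264 CPM in tdT- LPS libraries. Its values in tdT+ libraries were 167, 113, 104, 106 and 129 CPM in CTL and 1404, 1088, 1198, 1304 and 1469 CPM in LPS mice. The lowest LPS library was 4.06 times the highest CTL library in tdT- dCAMs and 6.5 times in tdT+ dCAMs. With log2 fold changes of 2.97 ± 0.24 (edgeR adjusted p = 2.67e-08) and 3.39 ± 0.24 (edgeR adjusted p = 5.73e-09), it had the smallest p of all members in each population. A gene count does not tell the M1 and M2 splice forms of Pkm apart.

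Eno1 (chromosome 4, 150236721 to 150248879), the enolase of most cells, rose less. It was at 334, 221, 433, 236 and 203 CPM in tdT- CTL and 691, 488, 559, 631 and 534 CPM in tdT- LPS libraries, and at 204, 146, 159, 170.5 and 143 and 536, 407, 443, 588 and 545 CPM in the matching tdT+ libraries. No libraries overlapped. The log2 fold change of 1.03 ± 0.21 (edgeR adjusted p = 0.00187) in tdT- dCAMs was just over the minimum, and 4 of 20 alternatives, among them leaving out LPS mouse 60 or CTL mouse 179, brought it under 1, while that in tdT+ dCAMs was 1.62 ± 0.21 (edgeR adjusted p = 1.93e-05). Eno2, the neuronal enolase, was over the floor in 1 of 5 tdT- CTL, 2 of 5 tdT+ CTL and all 10 LPS libraries, with at most 9.92 CPM there.

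Pgk1, the first ATP-yielding kinase, and Pgam1, the mutase after it, were counted at low levels and their calls were fragile. Pgk1 (chromosome X, 106187100 to 106203699) was at 0 to 34.5 and 7.96 to 19.3 CPM in tdT- and tdT+ CTL libraries and at 66.4 to 105 and 64.6 to 98.6 CPM under LPS, with log2 fold changes of 2.30 ± 0.74 (edgeR adjusted p = 0.0452) and 2.54 ± 0.75 (edgeR adjusted p = 0.0435). Each of these calls held in 9 of the 20 alternatives, and each was lost when any 1 LPS mouse or CTL mouse 174, 175 or 177 was left out, in tdT+ dCAMs also without mouse 178 (edgeR adjusted p from 0.0548 to 0.103 in tdT- and edgeR adjusted p from 0.0549 to 0.115 in tdT+ dCAMs). Pgam1 (chromosome 19, 41911923 to 41918660) was at 5.77 to 28.9 and 8.42 to 16.8 CPM in CTL and at 32.2 to 48.5 and 32.8 to 41.4 CPM in LPS libraries, with 1.40 ± 0.47 (edgeR adjusted p = 0.0538), not past the threshold, and 1.66 ± 0.47 (edgeR adjusted p = 0.0352), past it in 12 of the 20 alternatives and lost without any 1 LPS mouse or CTL mouse 177 (edgeR adjusted p from 0.0669 to 0.116). With the replicate block Pgam1 and Eno2 passed in tdT- dCAMs, with 1.58 (limma adjusted p = 0.00864) and 5.10 (limma adjusted p = 0.017).

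Several of these genes have near-identical copies in the genome. Of the 50-base stretches of the longest coding transcript, 82.5% in Gapdh, 72.2% in Eno1, 68% in Pgk1, 62.5% in Bnip3 and 41.5% in Pgam1 also occur in transcripts of other genes annotated in GENCODE M21. In Pkm this was 34.4%, in Aldoa 13.5% and in Ldha 16.6%, and 12 of the 32 members shared none, among them Hk2, Slc16a1 and Slc16a3. Reads from shared stretches can be dropped or split by the counting, so the levels of these genes are uncertain. The library kit does not mark the strand, and exons of 13 members overlap those of another annotated gene, by 15.3% of exon bases in Pkm, 8.11% in Hif1a and 22.2% in Bnip3.

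**Figure D3:**
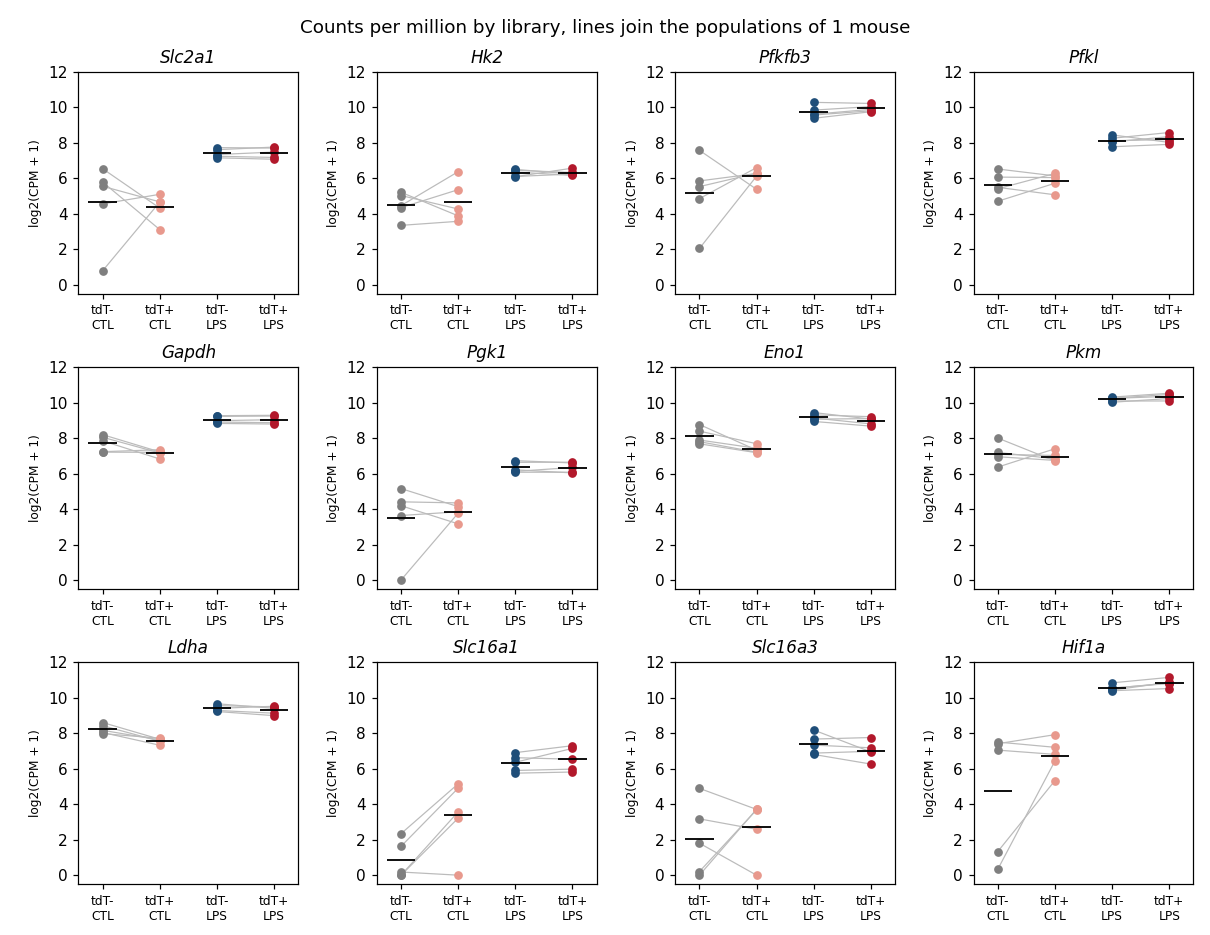
Level of 12 members in each library as log2(CPM + 1), with 1 point per library, a bar for the mean of 5 libraries and a line joining the tdT- and tdT+ library of 1 mouse. In all 12 panels the tdT- LPS points lie above the tdT- CTL points, and in tdT+ libraries the same holds except for Hk2.

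Among genes of lactate formation and export, Ldha and Slc16a3 rose in both populations and Slc16a1 in tdT- dCAMs. Ldha (chromosome 7, 46841475 to 46855627), the lactate dehydrogenase subunit that favours lactate, was at 387, 250.3, 342, 285 and 262 CPM in tdT- CTL and 808, 596, 621, 751 and 675 CPM in tdT- LPS libraries. The tdT+ libraries had 201, 209.5, 186, 196 and 159 CPM in CTL and 675, 507, 558, 714 and 732 CPM in LPS mice. The CTL and LPS ranges were apart in both populations, with log2 fold changes of 1.18 ± 0.17 (edgeR adjusted p = 5.33e-05) and 1.74 ± 0.17 (edgeR adjusted p = 4.08e-07). Ldhb, the heart-type subunit, was low, at 11.5, 12.1, 2.08, 11.8 and 8.28 CPM in tdT+ CTL libraries and at most 3.93 CPM in LPS libraries, with no call.

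Slc16a3 (chromosome 11, 120948480 to 120960868), the lactate exporter MCT4 of glycolytic cells, was at 0.152, 8.02, 0, 28.7 and 2.49 CPM in tdT- CTL and 289, 111, 117, 159.8 and 202 CPM in tdT- LPS libraries. Levels in tdT+ libraries were 11.8, 4.99, 12.1, 12 and 0 CPM in CTL and 122, 75.7, 125, 144 and 215 CPM in LPS mice. It was near 0 in several CTL libraries and at 75.7 CPM or more in every LPS library, with log2 fold changes of 4.47 ± 1.18 (edgeR adjusted p = 0.015) and 4.06 ± 1.16 (edgeR adjusted p = 0.0372), and the call in tdT+ dCAMs was lost without any 1 LPS mouse or CTL mouse 175 (edgeR adjusted p from 0.0646 to 0.105). The call in tdT- dCAMs was lost with quality weights (limma adjusted p = 0.125) and in a fit of the libraries of that comparison alone (edgeR adjusted p = 0.0709). Slc16a1 (chromosome 3, 104638668 to 104658462), the carrier MCT1, was at 0, 0, 2.09, 4.06 and 0.131 CPM in tdT- CTL and 58.7, 97.4, 81.2, 52.7 and 119 CPM in tdT- LPS libraries. In tdT+ libraries the values were 10.9, 8.28, 28.9, 34.5 and 0 CPM in CTL and 62, 91.5, 140.4, 55.2 and 156 CPM in LPS mice. The LPS libraries were alike in level between the populations, while 4 of the 5 tdT+ CTL libraries were above all tdT- CTL libraries. The log2 fold change was 6.0 ± 1.30 (edgeR adjusted p = 0.00339) in tdT- and 2.61 ± 1.10 (edgeR adjusted p = 0.187) in tdT+ dCAMs, where it did not pass, and the difference of -3.38 ± 1.52 did not pass either (edgeR adjusted p = 0.332). With the replicate block Slc16a1 passed in tdT+ dCAMs, with 4.36 (limma adjusted p = 0.0279), and its call in tdT- dCAMs was lost with quality weights (limma adjusted p = 0.103).

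Pyruvate dehydrogenase and its kinases gave 1 call, for Pdk4. Pdha1, a catalytic subunit, was at 0 to 88.7 and 13.4 to 65.5 CPM in tdT- and tdT+ CTL libraries and at 92.8 to 108 and 98.3 to 121 CPM in LPS libraries, without overlap in either population, yet with log2 fold changes of 1.13 ± 0.81 (edgeR adjusted p = 0.365) and 1.23 ± 0.81 (edgeR adjusted p = 0.468). The kinase Pdk1 averaged 21.6 ± 15.8 and 34.8 ± 10.7 CPM in tdT+ CTL and LPS libraries and Pdk3 26.4 ± 6.59 and 55.5 ± 11.6 CPM, with no call in either population. In tdT- CTL libraries Pdk1 ranged over 0 to 95.6 and Pdk3 over 0 to 89.98 CPM. Pdk4 (chromosome 6, 5483351 to 5496309), a kinase known from fasting, had at most 3 counts in all 5 tdT- CTL libraries and 8.91, 10.4, 0, 6.81 and 0 CPM in tdT- LPS libraries. It passed there (edgeR adjusted p = 0.0379) with a mean at least 13.8-fold higher, taken against 3 counts per library, although its LPS libraries of mice 59 and 61 had 0 counts, and it kept the call in 8 of 20 alternatives, being lost without LPS mouse 54, 56 or 60 or without CTL mouse 174, 177, 178 or 179 (edgeR adjusted p from 0.0512 to 0.0847). With the replicate block its call was lost, with 3.62 (limma adjusted p = 0.0813), while Pdk1, Pdk3 and Pdha1 passed in tdT- dCAMs, with 4.32 (limma adjusted p = 0.0154), 4.13 (limma adjusted p = 0.0168) and 3.14 (limma adjusted p = 0.0299). In tdT+ dCAMs it was at 0, 0, 8.19, 0 and 13.3 CPM in CTL and 12.5, 4.95, 4.18, 10.1 and 4.65 CPM in LPS libraries (0.75 ± 1.63 (edgeR adjusted p = 0.922)).

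Hif1a rose in both populations and had the highest CPM of all members under LPS. Hif1a (chromosome 12, 73901375 to 73947530) was at 1.52, 131, 169, 179.96 and 0.262 CPM in tdT- CTL and 1492, 1475, 1372, 1343 and 1827 CPM in tdT- LPS libraries. In tdT+ libraries it was at 39.3, 111, 241, 146 and 85.4 CPM in CTL and 1781, 1813, 1871, 1464 and 2263 CPM in LPS mice. The lowest LPS library, at 1343 CPM, was far above the highest CTL library, at 241 CPM, with the tdT- CTL libraries of mice 174 and 179 close to 0. The log2 fold changes were 3.96 ± 0.95 (edgeR adjusted p = 0.00734) and 3.88 ± 0.94 (edgeR adjusted p = 0.0122). Without those 2 libraries, in a fit added after the data were seen, the value in tdT- dCAMs was 3.22 (edgeR adjusted p = 2.00e-05). In the limma-voom fit with mouse as a replicate block the call in tdT- dCAMs was lost (log2 fold change 6.16, limma adjusted p = 0.0963). It was also lost in a fit of the tdT- libraries alone (edgeR adjusted p = 0.0796). HIF-1 is set mainly by breakdown of the protein, which RNA does not show.

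The other hypoxia members did not pass. Bnip3, a mitophagy receptor and a classical HIF target, was at 0 to 23.1 and 7.97 to 18.7 CPM in tdT- and tdT+ CTL libraries and at 19.4 to 41.5 and 23 to 44.2 CPM in LPS libraries, with log2 fold changes of 1.38 ± 0.99 (edgeR adjusted p = 0.365) and 1.17 ± 0.99 (edgeR adjusted p = 0.615). With the replicate block Bnip3 passed in tdT- dCAMs, with 3.85 (limma adjusted p = 0.0149). Egln3, a prolyl hydroxylase that marks Hif1a for breakdown and is itself a HIF target, was the thinnest member with 275 counts over the 20 libraries, at most 7.59 CPM in any library and 0 in all 5 tdT+ CTL libraries.

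Per kilobase of exon, the order of the members changed with LPS. Ldha was first among the 32 members in both CTL groups, at 92.3 ± 17.4 CPM per kb in tdT- and 57.5 ± 5.91 in tdT+ libraries (SD, n = 5). Under LPS Hif1a was first, at 255 ± 32.7 in tdT- and 312 ± 48.3 in tdT+ libraries, followed by Pkm at 232 ± 19 and 258 ± 30.7 and Ldha at 208 ± 26.7 and 192 ± 30. In tdT- libraries each of these means differed from the next by less than the larger of their SDs, and below them Gapdh, Tpi1, Pfkfb3 and Eno1 lay at 128 ± 17.3, 126 ± 27.2, 116 ± 29.8 and 108 ± 15, where neighbours in this order differed by less than the larger of their SDs. Lengths are unions of annotated exons, so genes with long rare exons rank too low.

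**Figure D4:**
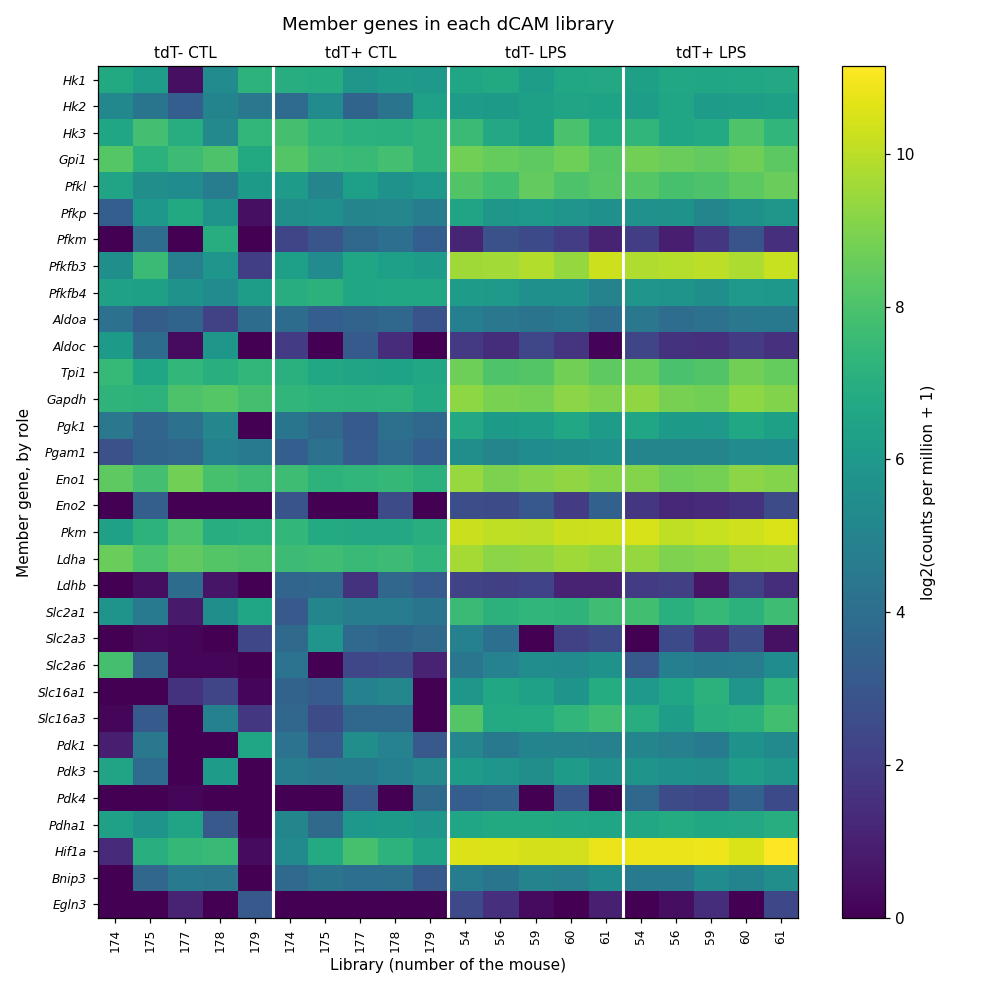
Level of the 32 members as log2(CPM + 1) by colour, with 1 row per gene in the order of the pathway and 1 column per library, grouped by population and treatment and named by mouse. The LPS columns are bright for Pfkfb3, Pkm and Hif1a in all 10 libraries, and dark cells at 0 are most frequent in the tdT- CTL columns, which hold 43 of the 67 values at or under the floor.

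Neighbouring pathways, from lists of genes that are no members, gave calls under LPS in part, and their counts stand beside the 7.20% of all genes that were higher and 4.27% that were lower in tdT- dCAMs, and the 3.37% and 2.52% in tdT+ dCAMs. Of 12 tested genes among other glycolysis enzymes 3 were higher in tdT- and 1 in tdT+ dCAMs. They were Tigar, a phosphatase that opposes Pfkfb3, Ldhd, a D-lactate dehydrogenase, and Fbp1, which reverses the phosphofructokinase step. All had 0 counts in every tdT- CTL library and averaged 9.58 ± 2.79, 13.6 ± 7.84 and 3.67 ± 3.86 CPM under LPS, at least 25.4-fold, 36.1-fold and 9.74-fold higher (edgeR adjusted p = 2.89e-04, 0.00404 and 0.0103). Fbp1 also passed in tdT+ dCAMs, from 0 counts to 8.04 ± 5.77 CPM, at least 23.7-fold (edgeR adjusted p = 0.00799). None of 8 other glucose and lactate carriers and none of 7 pentose phosphate genes passed in either population by edgeR.

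Mitochondrial genes went both ways. Of 11 further genes of pyruvate entry 2 were higher in tdT- and 0 in tdT+ dCAMs: Pcx, pyruvate carboxylase, from 0 counts to 7.13 ± 4.69 CPM, at least 18.9-fold (edgeR adjusted p = 0.00273), and Pdpr, a regulator of pyruvate dehydrogenase phosphatase, at least 33.3-fold (edgeR adjusted p = 0.00874). In tdT+ libraries Pcx averaged 1.57 ± 1.62 CPM in CTL and 7.57 ± 5.86 CPM under LPS. Pdpr averaged 10.5 ± 12.9 and 9.45 ± 4.88 CPM there, so the group that stood low for Pdpr was tdT- CTL. Of 16 citric acid cycle genes 2 were lower in tdT- dCAMs, Idh3g from 228 ± 72.7 to 91.8 ± 8.16 CPM (-1.31 ± 0.25 (edgeR adjusted p = 9.77e-04)) and Fh1 from 157 ± 117 to 40.4 ± 11.4 CPM (-1.96 ± 0.45 (edgeR adjusted p = 0.00547)), an isocitrate dehydrogenase subunit and fumarase. In tdT+ dCAMs 1 was higher, the malate dehydrogenase Mdh2, from 129.9 ± 35.8 to 289 ± 22.7 CPM (1.15 ± 0.23 (edgeR adjusted p = 0.00266)). Of 8 glycogen genes 1 was lower in tdT+ dCAMs, the glycogen phosphorylase Pygb, from 127 ± 27 to 40.3 ± 15.1 CPM (-1.66 ± 0.38 (edgeR adjusted p = 0.00828)).

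The rest of the HIF system moved in part. Of 7 further genes of the system 2 were higher in each population. Hif3a, a HIF subunit whose short forms inhibit HIF-1, had 0 counts in all tdT- CTL libraries and averaged 39.4 ± 19.7 CPM in tdT- and 54.6 ± 19.8 CPM in tdT+ LPS libraries, at least 105-fold higher in tdT- dCAMs (edgeR adjusted p = 1.78e-04 and 0.00129). Egln2, another prolyl hydroxylase, rose by 1.10 ± 0.33 (edgeR adjusted p = 0.0339) and 1.61 ± 0.34 (edgeR adjusted p = 0.00355) on the log2 scale. Of 16 other hypoxia targets 3 were higher in tdT- dCAMs and 1 in tdT+ dCAMs. Mif, a cytokine, rose in both, from 19.5 ± 9.12 to 59.3 ± 14.7 CPM in tdT- (1.60 ± 0.41 (edgeR adjusted p = 0.0127)) and from 14.9 ± 3.08 to 60.1 ± 14.3 CPM in tdT+ dCAMs (2.01 ± 0.42 (edgeR adjusted p = 0.00335)). Ankrd37 and Ak4 rose in tdT- dCAMs from 0 counts to 1.37 ± 0.93 and 1.7 ± 1.03 CPM, at least 3.64-fold and 4.5-fold (edgeR adjusted p = 0.0105 and 0.0494). In tdT+ libraries Ankrd37 averaged 2.07 ± 1.88 CPM in CTL and 2.85 ± 1.93 CPM under LPS, so for it too tdT- CTL was the group that stood low. Ak4 averaged 0.021 ± 0.0469 and 2.33 ± 3.19 CPM there. Of the 2 near-identical copies of members that were tested 0 passed by edgeR.

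Between tdT+ and tdT- dCAMs no member passed the threshold. In CTL mice 0 of 32 members passed the threshold by edgeR, against 4.28% of all genes, while 10 members had an unadjusted p under 0.05, against 23.5% of all genes, and DESeq2 called 4, against 9.88%. Without a minimum fold 2 members were lower in tdT+ dCAMs, against 1.58% of all genes. These were Ldha, at 387, 250.3, 342, 285 and 262 CPM in tdT- and 201, 209.5, 186, 196 and 159 CPM in tdT+ libraries of the same mice, a log2 fold change of -0.68 ± 0.17 (edgeR adjusted p = 0.0185), and Eno1, of -0.79 ± 0.21 (edgeR adjusted p = 0.0282). Both were lower in the tdT+ library of all 5 CTL mice, and for Ldha the populations did not overlap. Gapdh was lower in 4 of 5 mice (-0.61 ± 0.20 (edgeR adjusted p = 0.0887)) and Tpi1 in 4 of 5 (-0.50 ± 0.22 (edgeR adjusted p = 0.181)), and neither passed. Pfkfb4 and Slc2a3 were higher in the tdT+ library of all 5 CTL mice, with 0.79 ± 0.30 (edgeR adjusted p = 0.134) for the former. The 4 members that DESeq2 called were Slc2a3, Slc16a1 and Pdk4, higher in tdT+ dCAMs, and Egln3, lower, and each had at most 3 counts in 3 to 5 of the 5 libraries of 1 population. With the replicate block Ldhb passed as well as Slc2a3, with 4.21 (limma adjusted p = 0.0161). In that fit the median of all genes in this contrast shifted up by 0.54 on the log2 scale. It called 1966 of all genes higher and 279 lower in tdT+ dCAMs.

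In LPS mice 0 of 32 members passed between the populations, against 0.0301% of all genes, and 0 had an unadjusted p under 0.05, against 5.41%. DESeq2 also called 0, against 0.361%. Log2 fold changes of the 20 well-measured members had a median of 0.01 there. For Pkm, Hif1a, Pfkfb3 and Ldha they were 0.16 ± 0.22, 0.29 ± 0.84, 0.18 ± 0.55 and -0.12 ± 0.16 (± SE), with Pkm and Hif1a higher, and Eno2 and Slc2a6 lower, in the tdT+ library of all 5 LPS mice.

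The difference of LPS effects, tdT+ minus tdT-, passed for 0 of 32 members by edgeR, against 1.26% of all genes, with 6 members at an unadjusted p under 0.05 (13.1% of all genes) and 1 called by DESeq2 (4.47%), Slc2a3. Estimates were 0.03 ± 0.77 for Pfkfb3, -0.06 ± 0.42 for Pfkl, -0.08 ± 1.19 for Hif1a and 0.41 ± 0.31 for Pkm (tdT+ minus tdT-, ± SE). For Ldha, Eno1 and Gapdh they were 0.57 ± 0.23 (edgeR adjusted p = 0.274), 0.59 ± 0.29 (edgeR adjusted p = 0.393) and 0.61 ± 0.28 (edgeR adjusted p = 0.357). For Slc16a1 the estimate was -3.38 ± 1.52, as given with its levels. The SE of Hif1a leaves room for differences in either direction, so its effects are not shown to be equal.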

How the data were processed

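The authors aligned reads of the low-input PCR libraries with STAR 2.7.11a, assigned them to genes with featureCounts 2.0.6 and deposited raw counts per gene symbol for 20 libraries. Reads carried no molecular identifiers, so counts include PCR copies and floors cover counting error only. The genome build of the table is not settled by the methods. Coordinates, exon lengths and shared 50-base stretches come from GENCODE M21 on GRCm38, and promoter windows from RefSeq on GRCm38.p6.

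Groups were taken from the labels. Unless another fit is named, values derive from 1 edgeR 4.0.16 quasi-likelihood fit (R 4.3.3) over the 20 libraries with TMM scaling, 1 mean per group and no covariate. It covers the 16632 of 33243 genes with a total count of at least 10. The contrasts were LPS against CTL in each population, tdT+ against tdT- in each treatment, and the difference of the LPS effects. P-values were adjusted by Benjamini-Hochberg over all genes tested, and a call needed an adjusted p below 0.05 with a log2 fold change above 1 in size. SE is the log2 fold change divided by the root of the F statistic. CPM is the count per 1e+06 counts after TMM scaling. A bound uses 3 counts per library as floor. The pipeline was tested on simulated data before use.

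Values per library are given for Hif1a, Gapdh and Slc2a1 and for the members past the threshold under LPS, up to 12 by the smallest p. From each list of other genes up to 3 past the threshold under LPS with the smallest p are named. Values of single libraries of other members are given by choice after they were seen. The members and lists were chosen with earlier results of these data known.

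The mouse number pairs the tdT+ and tdT- libraries, since both were sorted from 1 dura. Deviations of paired libraries from their group means correlated across all tested genes with r from 0.000914 to 0.0333 in CTL and from 0.0471 to 0.119 in LPS mice. No pair of libraries held identical counts. P-values rest on the spread between libraries within groups, pooled over the 4 groups, with 5 mice per treatment. The reported fit holds no term for the mouse, so the 2 libraries of a mouse count as separate and the populations were compared unpaired. Because of the pooling, p-values in tdT+ dCAMs also carry the spread of the patchy tdT- CTL libraries. Alternatives were other scaling and filters, DESeq2 1.42.0, limma 3.58.1 (voom) with quality weights or with mouse as a replicate block, thinned counts, separate fits, a title letter covariate, and fits without each mouse. The random replicate block was fitted in limma-voom alone, with a consensus correlation within mice of 0.0413. No voom fit was run without both block and weights. Changes seen with the block therefore mix the change of method with the mouse term, and the part of each was not tested.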

Additional observations from a re-analysis of the deposited data

Results flagged for a closer look

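Values far from the rest of their group were searched in the 32 members and 4 groups with Dixon's test for 5 libraries, which flags about 1 in 20 groups by chance. Of 128 groups of 5 values, 9 had such a library, and all 9 were CTL groups, 5 of tdT- and 4 of tdT+ dCAMs.

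In tdT- CTL libraries the value that stood apart was low for Hk1, at 0.368 CPM in mouse 177, and for Pgk1, at 0 CPM in mouse 179. It was high for Eno2, at 9.33 CPM in mouse 175, for Slc2a3, at 4.19 CPM in mouse 179, and for Pdk4, at 0.123 CPM in mouse 177, where the other 4 libraries were at or near 0. For Eno2 and Pdk4 those 4 were all at 0, so any count would be flagged, and the Pdk4 value lay under the floor. In tdT+ CTL libraries it was low for Ldhb, at 2.08 CPM in mouse 177, and for Slc16a1 and Slc16a3, each at 0 CPM in mouse 179, and high for Slc2a3, at 55.1 CPM in mouse 175. No cause was tested. No member had an LPS effect that differed between the populations by the test of the difference.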

How the results depend on the processing

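Of the 26 calls of members under LPS, 14 held in all 20 alternatives run for each: Pkm, Ldha, Gapdh, Pfkl and Pfkfb3 in both populations, and Eno1, Tpi1, Slc2a1 and Hif1a in tdT+ dCAMs. Percentages in the rest of this paragraph are shares of all genes called in the same fit, in either direction. The count of 14 in tdT- dCAMs (11.5%) fell to 9 with limma-voom and quality weights (11.5%). It fell to 8 in a fit of the 10 libraries of that comparison alone (5.83%). It ranged from 9 (without LPS mouse 60) to 15 when 1 mouse was left out (8.15% to 15.7%). In limma-voom with mouse as a replicate block it was 19, where 27.2% of all genes were called. In that block fit the median of all genes shifted by 0.74 on the log2 scale, and by 0.66 with quality weights. The count of 12 in tdT+ dCAMs (5.89%) ranged from 9 to 14 when 1 mouse was left out (4.25% to 6.58%). It was 14 with the replicate block (9.45%). It was 18 both with quality weights (19%) and with the libraries of the comparison alone (15.2%). Each of these fits had 16 higher and 2 lower (Slc2a3 in both, with Pfkm in the former and Pfkfb4 in the latter). Lower calls in tdT- dCAMs were Aldoc with DESeq2 and without CTL mouse 179, and Pfkm without the tdT- CTL libraries of mice 174 and 179. Between the populations in CTL mice the count of 0 (4.28%) became 2 without a minimum fold and 4 with DESeq2 (9.88%). It was 2 with mouse as a random replicate block (Ldhb and Slc2a3, 13.5%) and 0 with mouse as a fixed block (3.25%). With the title letter as a covariate it was 1 (3.64%). Without the tdT- CTL libraries of mice 174 and 179, a setting chosen after the data were seen, it was 1 (7.21%). Leaving out 1 mouse gave 0 to 2 (Eno2 without mouse 175, Ldhb without 177, Slc2a3 and Slc16a1 without 179), against 2.92% to 8.22%. For the difference of the LPS effects the count of 0 (1.26%) became 1 with DESeq2 (4.47%) and 1 without those 2 libraries (2.49%), each Slc2a3. It was 0 to 1 when 1 mouse was left out (Eno2 without mouse 175, Slc2a3 without 179), against 0.386% to 3.89%. Between the populations in LPS mice the count was 0 in all, against at most 0.824%. The sign of a value turned for Ldhb in tdT- dCAMs, from -0.19 to 3.47 without CTL mouse 177 (leaving out 1 mouse at a time gave -0.52 to 3.47), and for Slc2a6 there, from -0.38 to 4.64 with the replicate block. The cause of these moves was not tested. A paired fit with mouse as a fixed block cannot give the LPS contrasts, since each mouse had 1 treatment. Egln3, Pdk4, Eno2, Slc2a3 and Aldoc had the most values at or under 3 counts, being over this floor in 9, 10, 13, 14 and 15 of the 20 libraries. Slc2a6 and Slc16a1 followed with 16 each, and Pfkm, Ldhb and Slc16a3 with 17 each. The part of depth in these low values was not tested.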
